A study of Homo sapiens with 13 samples.

Results

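The human mitochondrial genome encodes 37 genes, and all 37 were found among the 45744 genes of the deposited count table by their names, which begin with MT-. They are 13 protein-coding genes, 2 ribosomal RNAs and 22 transfer RNAs. Their counts were followed in 13 RNA sequencing libraries of HuT78, a line of malignant T cells that came from a patient with Sézary syndrome, a leukemic cutaneous T cell lymphoma. Treatment lasted 72 h and was with chaetocin at 10 nM (4 libraries, replicates 1 to 4), with F5446 at 10 nM (3 libraries, replicates 2 to 4), with romidepsin at 1 µM (4 libraries, replicates 1 to 4) or with the vehicle DMSO (2 libraries, replicates 1 and 4). Chaetocin is a fungal metabolite that inhibits histone H3 lysine 9 methyltransferases of the SUV39H1 type, F5446 is a code-named SUV39H1 inhibitor, and romidepsin is a histone deacetylase inhibitor. All groups are of 1 cell line. Whether the replicates came from separate cultures is not stated in the labels, and the p-values therefore measure the spread between these libraries alone.

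Mitochondrial DNA is a small circle present in many copies per cell and transcribed by its own polymerase, POLRMT, with the factors TFAM and TFB2M. Each strand is read as a long polycistronic RNA, from which tRNAs are cut out to release the mRNAs and rRNAs between them. The heavy-strand promoter drives both rRNAs, most tRNAs and all mRNAs but MT-ND6, which is read from the light-strand promoter, and the mRNAs encode core subunits of respiratory chain complexes I, III and IV and of ATP synthase. In the GENCODE 29 annotation, 14 tRNAs lie on the strand of MT-ND1 and 8 on that of MT-ND6.

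Library totals ran from 19901052 to 30816188 counts, and the 37 genes gave 5.22 to 15.9% of them. The filter on low counts kept 17252 genes, among them 27 of the 37 members: the 13 mRNAs, both rRNAs and 12 tRNAs. Of the 10 members not tested, all tRNAs, 7 had no count in any library. Levels are given as CPM, counts scaled to the TMM-normalized library size. A called gene is one with an adjusted p under 0.05 in edgeR's quasi-likelihood test. The labelled T cell origin was checked against 13 T cell marker genes, which summed to 1170 to 1748 CPM. That sum was 1170 to 1479 CPM in the libraries numbered 1 or 2 and 1531 to 1748 CPM in those numbered 3 or 4. The largest part of the sum came from PTPRC, with a mean of 473 CPM, a gene that is not particular to T cells. The markers were uneven: CD3E had a mean of 220 CPM, but CD2 had 8.88, CD5 3.51, CD28 0.14 and LAT 0.02. KRT8 of the epithelial list and CD79A of the B cell list, at 62.8 and 46.7 CPM, lay above CD2, CD5, CD28 and LAT. Summed markers of B cells, monocytes, fibroblasts and epithelial cells lay at 40.7 to 93.0, 1.55 to 4.76, 29.3 to 54.3 and 104 to 168 CPM.

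Some of the mRNA genes share bases, which bears on how their reads could be assigned. MT-ATP8, a small ATP synthase subunit, ends inside MT-ATP6 and shares 46 of its 207 bases (22.2%) with it. MT-ND4L, a subunit of complex I, shares 7 of 297 bases with MT-ND4, and MT-ATP6 shares 1 base with MT-CO3. How reads on 2 genes were counted is not stated in the sources used here, and the levels of MT-ATP8 and MT-ATP6 are uncertain to that extent. The 2 shorter genes of these pairs are shown as in the GENCODE 29 reference transcripts of GRCh38, 5′ to 3′, with the shared bases in capitals.
MT-ATP8: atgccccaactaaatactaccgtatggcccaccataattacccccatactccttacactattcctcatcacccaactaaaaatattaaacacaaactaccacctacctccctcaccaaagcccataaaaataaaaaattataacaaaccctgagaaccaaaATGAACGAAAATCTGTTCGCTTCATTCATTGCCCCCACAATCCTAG
MT-ND4L: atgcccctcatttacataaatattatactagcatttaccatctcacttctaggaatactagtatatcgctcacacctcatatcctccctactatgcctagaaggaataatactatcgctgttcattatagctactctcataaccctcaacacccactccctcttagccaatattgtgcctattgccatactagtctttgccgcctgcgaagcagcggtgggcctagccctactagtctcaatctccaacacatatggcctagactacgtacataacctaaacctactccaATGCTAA

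Among the mRNAs, MT-CO2, MT-ND4 and MT-CO1 stood at the top when levels were compared per kilobase of gene. MT-CO2, a catalytic subunit of cytochrome c oxidase (complex IV), had a mean over the 13 libraries of 13554 CPM per kilobase. It was followed by MT-ND4 of complex I with 11399 and by MT-CO1, the other catalytic subunit of complex IV, with 11179. MT-ND1, MT-ND5, MT-ND2, MT-ATP6 and MT-CO3 followed between 8637 and 6799 CPM per kilobase. The lower mRNAs were MT-ND4L with 4029, MT-CYB (cytochrome b, the only mitochondrially encoded subunit of complex III) with 3202, and MT-ATP8 with 2629 CPM per kilobase. MT-ND6 and MT-ND3, both of complex I, had 2544 and 2525 CPM per kilobase. Neighbours in this order were often closer than their spread, since the coefficient of variation over libraries was 28.3% for MT-ND6 and between 31.3% for MT-CO1 and 47.4% for MT-ATP6 for the other mRNAs. The rRNAs, the structural RNAs of the mitochondrial ribosome, stood below every mRNA, with MT-RNR1 at 1108 and MT-RNR2 at 1111 CPM per kilobase. These are levels in the libraries, and whether rRNA was removed in their preparation was not tested. By complex, the 7 complex I mRNAs made up 54.8% of the mitochondrial mRNA counts, the 3 of complex IV 35.6%, the 2 of ATP synthase 5.63% and MT-CYB 3.98%.

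Counts of nuclear copies of mitochondrial genes were few. The table holds 14 such copies, of which 4 had any count, with 43 counts over all libraries.

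The share of counts from the 37 genes varied as much within a treatment as between treatments. DMSO replicates 1 and 4 had 11.7 and 6.97%. Chaetocin replicates 1 to 4 had 10.8, 9.67, 15.9 and 6.10%, F5446 replicates 2 to 4 had 8.75, 5.22 and 6.86%, and romidepsin replicates 1 to 4 had 10.97, 12.7, 5.75 and 8.90%. The group means were 9.32% ± 3.32 (SD, n = 2) for DMSO, 10.6% ± 4.04 (SD, n = 4) for chaetocin, 6.94% ± 1.77 (SD, n = 3) for F5446 and 9.59% ± 3.0 (SD, n = 4) for romidepsin, and the ranges of all 4 groups overlapped. Within each treatment the libraries numbered 1 or 2 stood above those numbered 3 or 4, except for chaetocin replicate 3, the highest of all. The 6 libraries numbered 1 or 2 had 10.8% ± 1.41 (SD, n = 6), and those numbered 3 or 4 without chaetocin replicate 3 had 6.63% ± 1.29 (SD, n = 6). The labels do not say what the replicate number marks. In bulk RNA, fewer cells of a kind and less RNA per cell cannot be told apart.

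**Figure D1:**
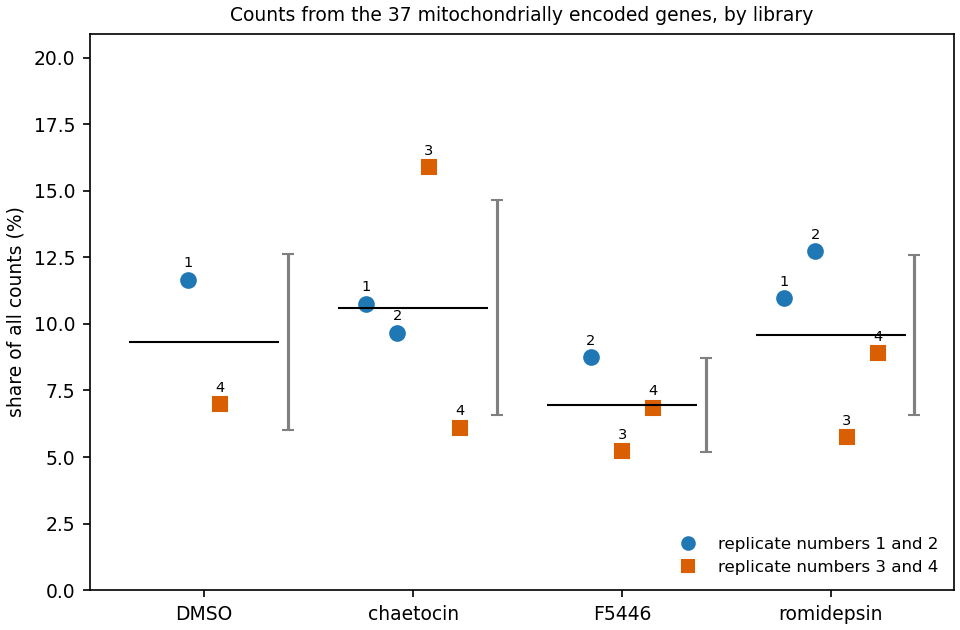
Share of all counts from the 37 mitochondrially encoded genes, in percent (y axis), for each library by treatment (x axis), with the replicate number above each point. The black line is the group mean and the grey bar its SD; blue circles are replicates 1 and 2 and orange squares replicates 3 and 4. Blue points lie between 8.75 and 12.7%, and orange ones between 5.22 and 8.90% apart from chaetocin replicate 3 at 15.9%.

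The mRNAs on the strand of MT-ND1 rose and fell together from library to library. Over the 13 libraries, Pearson's r between log2 CPM of 2 of these 12 mRNAs lay between 0.84 and 1.00 over the 66 pairs, with a median of 0.96. MT-ND6, from the other strand, had r between 0.39 and 0.72 with those 12 mRNAs, and between 0.20 and 0.48 without chaetocin replicate 3. The 2 rRNAs followed each other with r = 0.94 but had r of 0.16 to 0.59 with the 12 mRNAs, although they lie on the same strand. Without chaetocin replicate 3 this range was -0.09 to 0.31, and its median fell from 0.36 to 0.14. These correlations are a description of shared libraries and shared scaling, not a test.

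**Figure D2:**
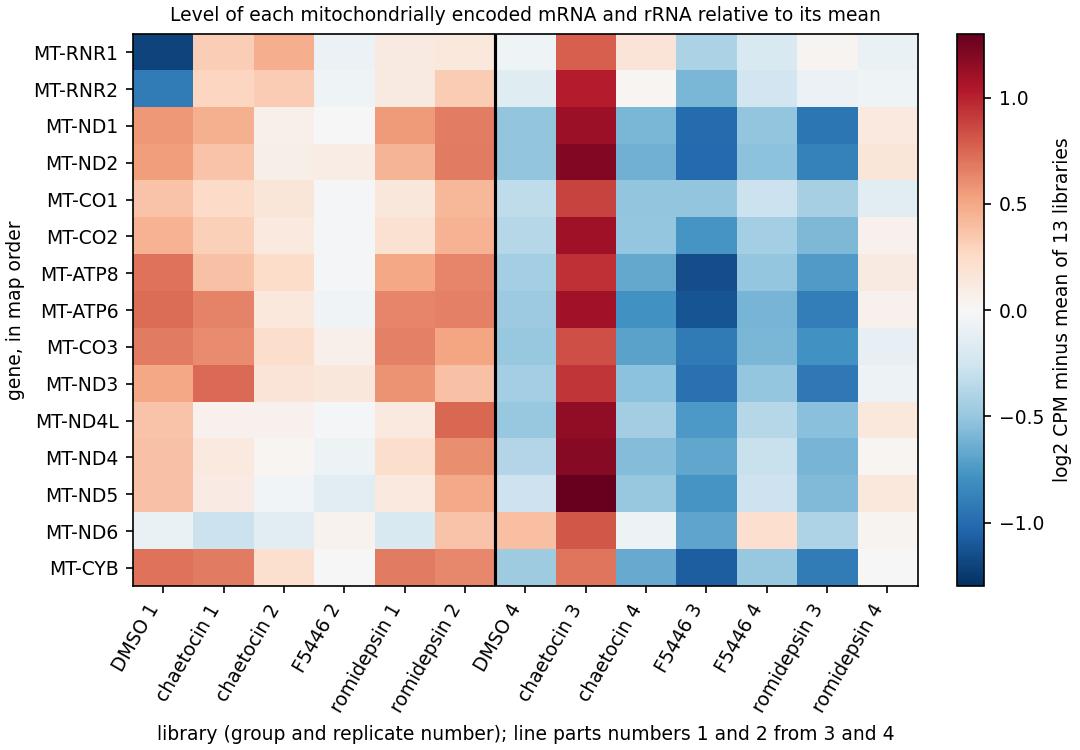
Log2 CPM of each mitochondrially encoded mRNA and rRNA minus its mean over the 13 libraries (colour), with genes in map order (y axis) and libraries ordered by replicate number and treatment (x axis). The vertical line parts numbers 1 and 2 from 3 and 4. Most mRNAs are red on the left and blue on the right except in chaetocin replicate 3, while MT-ND6 and the rRNAs do not follow that division.

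Chaetocin replicate 3 stood apart among the members. In CPM it was the highest library for both rRNAs and for every mRNA except MT-CYB, which was highest in DMSO replicate 1. Its TMM factor was 0.859, beside 0.989 to 1.038 in the other libraries, which raises its CPM. As a share of all counts, MT-CO3 and MT-ND3 were also higher in other libraries. The excess was uneven over the genes. Relative to the mean of the other 3 chaetocin libraries, MT-ND5 stood 2.69-fold, MT-ND4 2.45-fold and MT-ND4L 2.38-fold higher, whereas MT-CO3 stood 1.62-fold and MT-CYB 1.44-fold higher. For that reason the results that rest on it are given with and without this library.

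No member was called in any of the 6 comparisons between treatments, and for the mRNAs the groups overlapped in every one. Among all genes tested the edgeR test called 0% in each comparison, except for romidepsin against chaetocin with 0.0927%. At an unadjusted p under 0.05 the test marked 4 of the 27 members for chaetocin against DMSO (4.07% of all genes), 1 for F5446 against DMSO (2.48%) and 3 for romidepsin against DMSO (2.82%). It marked 2 for chaetocin against F5446 (3.4%), 1 for romidepsin against chaetocin (5.44%) and 0 for romidepsin against F5446 (2.46%). Limma-voom called no member in these 6 comparisons, and DESeq2 called 1, MT-RNR1 for chaetocin against DMSO, where it called 0.058% of all genes. The comparisons against DMSO share their 2 control libraries.

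MT-CO1, picked as an example after its values were seen, shows how wide the treatment groups were. Its level was 21348 and 13180 CPM in DMSO replicates 1 and 4, and 19621, 18461, 30465 and 11575 CPM in chaetocin replicates 1 to 4. It was 16325, 11637 and 13599 CPM in F5446 replicates 2 to 4, and 18297, 22321, 12229.7 and 15031 CPM in romidepsin replicates 1 to 4. The ranges of the 4 groups overlapped. Against DMSO, MT-CO1 differed by 0.21 (SE 0.32) on the log2 scale in chaetocin, -0.32 (SE 0.33) in F5446 and -0.02 (SE 0.31) in romidepsin.

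Chaetocin against DMSO gave a median log2 fold change of 0.27 over the 13 mRNAs, with 12 above 0, beside 0.01 over all genes tested. Without chaetocin replicate 3 the median was -0.09 with 1 above 0. Among libraries numbered 1 or 2 alone this median was -0.29. Among those numbered 3 or 4 it was 0.64, or -0.19 without chaetocin replicate 3. The direction of the mRNAs in this comparison therefore turned when that library was left out. The median also depended on the 2 DMSO libraries: without DMSO replicate 1 it was 0.79.

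F5446 against DMSO gave a median of -0.47, with all 13 mRNAs below 0, from -0.77 for MT-ATP6 to -0.27 for MT-ND6. Among libraries numbered 1 or 2 this came to -0.46, and among those numbered 3 or 4 to -0.26. Without DMSO replicate 1 the median was 0.04. Romidepsin against DMSO gave -0.01, with 5 above 0 and 8 below, and the within-number medians were -0.05 and 0.05. Each set of numbers holds 1 DMSO library, so these within-number values have no error.

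Chaetocin and F5446, both given at 10 nM, could be compared at an equal concentration and time. Whether the 2 compounds were equally effective at 10 nM was not tested. All 13 mRNAs stood higher in chaetocin, with a median log2 fold change of 0.78 and a range from 0.24 for MT-ND6 to 0.95 for MT-ATP6, and none was called. The 95% interval was -0.07 to 1.13 for MT-CO1, so that both no difference and a 2-fold one lay within it. Without chaetocin replicate 3 the median was 0.42, and within numbers 1 and 2 and within 3 and 4 without that library it was 0.23 and 0.11. Romidepsin was given at another concentration, and its values are set beside the others only as groups of the same series: the median was -0.19 against chaetocin (0.14 without chaetocin replicate 3) and 0.54 against F5446. Within numbers 1 and 2 and within 3 and 4, these medians were 0.26 and -0.57 against chaetocin, the latter 0.25 without chaetocin replicate 3, and 0.47 and 0.33 against F5446.

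The rRNAs gave the members' smallest p-values between treatments. MT-RNR1, the RNA of the small ribosomal subunit, stood at 439 and 975 CPM in DMSO replicates 1 and 4 and at 1263, 1403, 1727 and 1137 CPM in chaetocin replicates 1 to 4. It stood at 957, 761 and 879 CPM in F5446 replicates 2 to 4 and at 1099.9, 1113, 1036 and 951 CPM in romidepsin replicates 1 to 4. All chaetocin libraries lay above those of DMSO and F5446, and DMSO replicate 1 lay far below every other library. MT-RNR2, the RNA of the large subunit, had 879 and 1472 CPM in DMSO replicates 1 and 4 and 1993, 2065, 3349 and 1674 CPM in chaetocin replicates 1 to 4. It had 1584, 1095 and 1386 CPM in F5446 replicates 2 to 4 and 1791, 2077, 1561 and 1580.2 CPM in romidepsin replicates 1 to 4. Here too the chaetocin libraries did not overlap those of DMSO or F5446.

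In chaetocin against DMSO, MT-RNR1 stood 0.97 (SE 0.24) and MT-RNR2 0.95 (SE 0.26) higher on the log2 scale. Their edgeR adjusted p-values were 0.636 and 0.974, from unadjusted 0.0007 and 0.00192. Of all genes tested, 5.22% had chaetocin libraries wholly above DMSO. With DMSO replicate 1 left out, the log2 fold change of MT-RNR1 fell to 0.51. With DMSO replicate 4 left out it was 1.65, with an edgeR adjusted p of 0.00358 in a fit that called 0.0106% of all genes. Within numbers 1 and 2 it was 1.60 and within 3 and 4 it was 0.52, or 0.22 without chaetocin replicate 3. Against F5446, chaetocin stood 0.68 (SE 0.20) higher for MT-RNR1 and 0.74 (SE 0.22) higher for MT-RNR2, with an edgeR adjusted p of 0.999 for both, and 2.28% of all genes tested had chaetocin wholly above F5446. For romidepsin against DMSO the values were 0.57 (SE 0.23) and 0.58 (SE 0.25), and MT-RNR2 but not MT-RNR1 was above DMSO in every romidepsin library, as were 5.34% of all genes tested.

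With no filter on low counts, the same edgeR test called both rRNAs higher in chaetocin than in DMSO, with adjusted p-values of 7.48e-06 for MT-RNR1 and 4.40e-05 for MT-RNR2. It also called both higher in chaetocin than in F5446, at 0.0024341 and 0.00103. Of the 28048 genes in that fit 9 were called in each of these comparisons (0.0321%). The log2 fold changes in that fit were 0.98 and 0.96 against DMSO and 0.69 and 0.76 against F5446. They were close to those of the filtered fit, 0.97 and 0.95 against DMSO and 0.68 and 0.74 against F5446, where neither rRNA was called. With a filter at a mean of at least 5 CPM, 0 of 10095 genes were called in either comparison. The calls thus depended on the genes entered in the fit, and why was not tested.

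Set against the mitochondrial mRNAs, the rRNAs were lowest in DMSO replicate 1, with 11.3 rRNA counts per 1000 mRNA counts, and the other 12 libraries had 25.9 to 48.8. DMSO replicate 1 had 9171 counts of MT-RNR1 and DMSO replicate 4 had 20181. A difference between libraries in rRNA removal cannot be told apart here from one in rRNA level.

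Between replicate numbers, 12 of the 13 mRNAs stood lower in libraries numbered 3 or 4, yet none was called over all 13 libraries. With treatment as a term, the median log2 difference, numbers 3 and 4 minus 1 and 2, was -0.51 over the 13 mRNAs and -0.03 over all genes tested. Of all genes tested 15.8% were called, 8.07% higher and 7.69% lower. Of the 27 members, 3 had an unadjusted p under 0.05, as did 27.7% of all genes. MT-CYB differed by -0.76 (edgeR adjusted p = 0.107) and MT-CO3 by -0.72 (adjusted p = 0.128), while MT-ND6 differed by 0.14 (adjusted p = 0.783). Limma-voom called 7 members lower (MT-ND1, MT-ND2, MT-ND3, MT-CO3, MT-ATP6, MT-ATP8 and MT-CYB), the non-robust edgeR fit 7 (MT-CO3, MT-ATP6, MT-ATP8, MT-ND3, MT-CYB, MT-TA and MT-TT) and DESeq2 1 (MT-TA). Of all genes these fits called 15.9, 15.3 and 18.3%. This division was proposed with earlier results of these data known.

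Without chaetocin replicate 3, all 12 mRNAs of the heavy strand were called lower in numbers 3 and 4, and MT-ND6 and the rRNAs were not. That library was singled out by its high values for these same mRNAs, so the p-values without it follow a choice made on the outcome. Since the 12 mRNAs rose and fell together, their calls are not 12 separate results. In that fit 17% of 17027 genes tested were called, 8.32% lower. No other single library changed the count of called members from 0 when it was left out. MT-CO3, a structural core subunit of complex IV, shows the pattern in its CPM. The libraries numbered 1 or 2 had 7823 (DMSO), 7466 and 5727 (chaetocin), 5116 (F5446), 7723 and 6986 CPM (romidepsin). Those numbered 3 or 4 had 3466 (DMSO), 8769 and 3014 (chaetocin), 2580.4 and 3232 (F5446), and 2843 and 4552 CPM (romidepsin). The highest library numbered 3 or 4 other than chaetocin replicate 3 lay below the lowest numbered 1 or 2. This also held for MT-CO1, MT-ND3 and MT-CYB, 4 of the 13 mRNAs, beside 2.92% of all genes tested in that direction. The 4 follow the same choice made on the outcome, so the 2 shares are not on equal terms. Over all 13 libraries 0 of the 13 mRNAs lay apart.

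MT-CYB and MT-ND5, next to MT-ND6 on the map, were picked from their values to show the wide and the narrow end of this division. In the libraries numbered 1 or 2, MT-CYB had 5437 (DMSO), 5342 and 3857 (chaetocin), 3328 (F5446), 5321 and 5159 CPM (romidepsin). In those numbered 3 or 4 it had 2426 (DMSO), 5425 and 2124 (chaetocin), 1588 and 2378 (F5446), and 1784 and 3323 CPM (romidepsin). For MT-ND5, the largest of the mitochondrial mRNAs and a proton-pumping subunit of complex I, the libraries numbered 1 or 2 had 18678 (DMSO), 15393 and 13926 (chaetocin), 13015 (F5446), 15627 and 20147 CPM (romidepsin). Those numbered 3 or 4 had 11876 (DMSO), 35409 and 10197 (chaetocin), 8431 and 11880.1 (F5446), and 9589 and 15785 CPM (romidepsin). Romidepsin replicate 4 lay within the range of numbers 1 and 2 for MT-ND5 and just below it for MT-CYB.

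The log2 difference without chaetocin replicate 3 was -1.02 for MT-CO3 (edgeR adjusted p = 1.15e-06), -1.03 for MT-ATP6 (0.00361) and -1.01 for MT-CYB (0.00312). It was -0.94 for MT-ND3, -0.90 for MT-ATP8 and MT-ND1 and -0.88 for MT-ND2. The smaller ones were -0.65 for MT-CO2, -0.63 for MT-ND4, -0.62 for MT-ND4L, -0.59 for MT-CO1 (adjusted p = 1.88e-05) and -0.50 for MT-ND5 (0.00413). MT-ND6 differed by -0.03 (95% interval -0.50 to 0.44), MT-RNR1 by 0.03 and MT-RNR2 by -0.13. By treatment, the median over the 12 mRNAs was -1.002 in DMSO (1 library against 1), -0.77 in F5446 (2 against 1) and -0.90 in romidepsin (2 against 2). In chaetocin (2 against 2) it was -0.01, from -0.42 for MT-CYB to 0.38 for MT-ND5. Only without replicate 3, the library singled out by its values, was the chaetocin median -0.85.

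**Figure D3:**
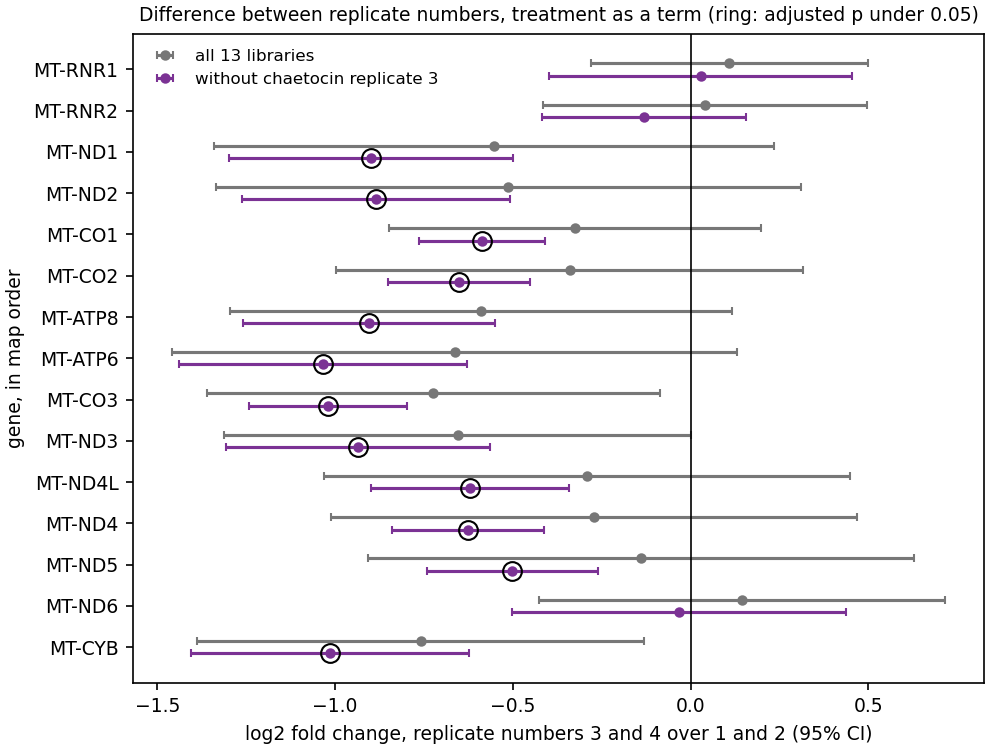
Log2 fold change of libraries numbered 3 or 4 over those numbered 1 or 2 (x axis, with 95% interval) for each mRNA and rRNA in map order (y axis), over all 13 libraries (grey) and without chaetocin replicate 3 (purple). Rings mark an adjusted p under 0.05: no grey point has one, and 12 purple points do, from -1.03 for MT-ATP6 to -0.50 for MT-ND5. The library left out was singled out by its values for these mRNAs.

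MT-ND6 took a larger share of the mRNA counts in the libraries numbered 3 or 4. Per 1000 counts of the other 12 mRNAs it had 10.6 in DMSO replicate 1 and 26.7 in DMSO replicate 4. It had 10.3, 13.1, 12.7 and 21.9 in chaetocin replicates 1 to 4, 16.4, 16.4 and 23.5 in F5446 replicates 2 to 4, and 10.8, 13.7, 18.3 and 15.6 in romidepsin replicates 1 to 4. The means were 12.5 ± 2.37 (SD, n = 6) for numbers 1 and 2 and 19.3 ± 4.91 (SD, n = 7) for numbers 3 and 4, with overlapping ranges. Since the strand setting of the counting is unknown, counts of MT-ND6 may include reads of the opposite strand. In CPM MT-ND6 itself had the lowest coefficient of variation of the 13 mRNAs, 28.3%, and ran from 800.3 CPM in F5446 replicate 3 to 2260.2 CPM in chaetocin replicate 3. Within the mRNAs, MT-ND5 made up 15.5% of counts in numbers 1 and 2 and 18.1% in 3 and 4, while MT-CO3 made up 6.58 and 5.15% and MT-CYB 4.56 and 3.49%.

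**Figure D4:**
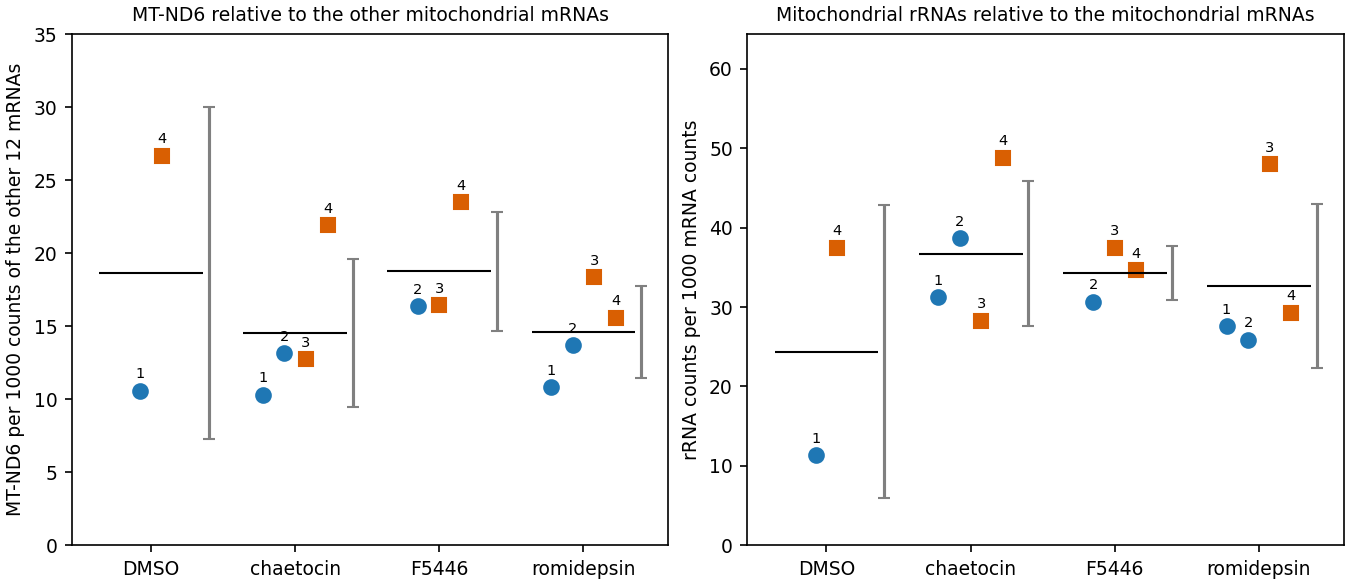
MT-ND6 counts per 1000 counts of the other 12 mitochondrial mRNAs (left) and mitochondrial rRNA counts per 1000 mRNA counts (right), by treatment, with replicate numbers above the points (blue circles 1 and 2, orange squares 3 and 4), the mean as a line and the SD as a grey bar. DMSO replicate 4 has the highest MT-ND6 value, 26.7, and DMSO replicate 1 the lowest rRNA value, 11.3.

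The tRNAs were counted at a low level, 17092 counts of 28497279 mitochondrial counts in all, and unevenly by strand. The 8 light-strand tRNAs all had counts and gave 85.3% of them. The 14 heavy-strand tRNAs gave 14.7%, and 7 of them (MT-TV, MT-TL1, MT-TK, MT-TG, MT-TR, MT-TH and MT-TL2) had 0 counts in all 13 libraries, where a count of 0 allows up to 3 counts in a library. MT-TP, the proline tRNA, had 394 to 988 counts per library, MT-TQ (glutamine) 86 to 445, MT-TT (threonine) 3 to 306 and MT-TA (alanine) 5 to 237. Each heavy-strand tRNA lies 0 or 1 base from a gene of its own strand in GENCODE 29, whereas MT-TQ, MT-TS1 and MT-TP lie 1186, 1554 and 1213 bases from the nearest. The other 5 light-strand tRNAs also lie within 1 base of a gene of their strand. Whether the counting or the neighbouring genes bear on these counts was not tested. The highest tRNA of each strand and 2 of those at 0 are given here, 5′ to 3′, from the same reference transcripts.
MT-TP: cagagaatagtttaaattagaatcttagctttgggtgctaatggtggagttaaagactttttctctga
MT-TT: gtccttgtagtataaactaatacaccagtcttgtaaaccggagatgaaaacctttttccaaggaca
MT-TL1: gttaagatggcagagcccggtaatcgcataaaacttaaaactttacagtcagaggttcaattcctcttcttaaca
MT-TK: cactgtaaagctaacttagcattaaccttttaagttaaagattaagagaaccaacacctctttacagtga

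Between treatments the 12 tested tRNAs gave no call. MT-TT had 24 and 3 counts in DMSO replicates 1 and 4, and 291, 213, 24 and 160 counts in chaetocin replicates 1 to 4. It had 306, 162 and 12 counts in F5446 replicates 2 to 4 and 75, 259, 194 and 102 in romidepsin replicates 1 to 4. In CPM every chaetocin and romidepsin library lay above both DMSO libraries, and F5446 replicate 4 lay between them. Chaetocin replicate 3 and DMSO replicate 1, with 24 counts each, had 1.20 and 1.15 CPM, so that their order rests on the scaling. The log2 fold change was 3.36 (SE 1.33) in chaetocin and 3.38 (SE 1.34) in romidepsin against DMSO, with unadjusted p-values of 0.0303 and 0.0295 and an edgeR adjusted p of 1 for both. MT-TF went the other way: DMSO replicates 1 and 4, at 1.01 and 1.74 CPM, lay above every treated library (0 to 0.89 CPM). Of the 12 tested tRNAs, 3 (MT-TT among them) lay wholly above and 1 wholly below DMSO in chaetocin, beside 901 and 1050 of all 17252 genes. In F5446 0 and 2 did so, beside 1628 and 1574 genes, and in romidepsin 1 and 1, beside 922 and 859. MT-TP, the tRNA with the most counts, differed from DMSO by 0.26 (SE 0.25) in chaetocin, 0.10 (SE 0.26) in F5446 and 0.17 (SE 0.25) in romidepsin.

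**Figure D5:**
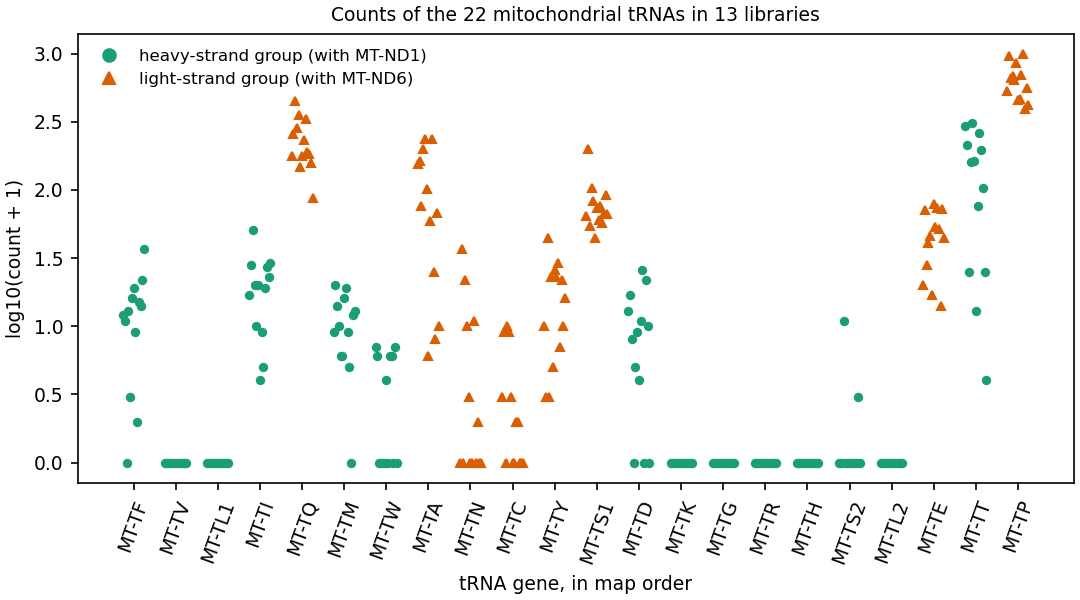
Counts of the 22 mitochondrial tRNAs in each of the 13 libraries (1 point a library), on a log10(count + 1) scale (y axis), in map order (x axis), with green circles for the strand of MT-ND1 and orange triangles for that of MT-ND6. MT-TP is the highest with 394 to 988 counts, and 7 heavy-strand tRNAs lie at 0 in every library.

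Nuclear genes that serve the mitochondrial genome were described from lists chosen with earlier results known. None of the genes on the 10 lists was called in any treatment comparison. Between replicate numbers, 8 of the 26 tested genes of mitochondrial DNA transcription, replication and nucleoid were called, 3 higher and 5 lower in numbers 3 and 4, in a contrast that called 15.8% of all genes, 8.07% higher and 7.69% lower. POLG, the catalytic subunit of the mitochondrial DNA polymerase, rose by 0.59 on the log2 scale (94.6 against 62.5 CPM, edgeR adjusted p = 3.54e-05), and LIG3, a DNA ligase, and RRM2B, a ribonucleotide reductase subunit, rose by 0.36 and 0.40. TFAM, which packages and activates mitochondrial DNA, fell by 0.24 (118.0 against 139.2 CPM, adjusted p = 0.0295). RNASEH1, MTERF1, ATAD3A and ATAD3B also fell, by 0.32, 0.52, 0.52 and 1.05. POLRMT differed by 0.06 (adjusted p = 0.756), TFB2M by -0.30 (0.0976) and the elongation factor TEFM by -0.41 (0.160), the latter by -0.62 (0.00892) without chaetocin replicate 3.

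Of 34 genes of mitochondrial RNA processing and stability, 6 were called lower and 0 higher, beside 7.69% of all genes called lower, and 29 of 34 lay below 0 with a median of -0.20, beside -0.03 over all genes. TRMU, which thiolates mitochondrial tRNAs, fell by 0.75, DDX28 and FASTK by 0.52 and 0.51, the pseudouridine synthase PUS1 by 0.50, the rRNA methyltransferase MRM3 by 0.42 and TRMT10C, a subunit of mitochondrial RNase P, by 0.33. Without chaetocin replicate 3, 8 were called lower, beside 8.32% of all genes: TRMT10C was no longer called, and NSUN4 (-0.44), TRMT5 (-0.43) and SLIRP were. LRPPRC, which with SLIRP binds and stabilizes mitochondrial mRNAs, differed by -0.19 (edgeR adjusted p = 0.134), and SLIRP by -0.22 (0.545), or -0.39 (0.0200) without chaetocin replicate 3. Of 22 mitochondrial tRNA synthetases and related enzymes 5 were called, beside 15.8% of all genes: KARS rose by 0.21 (not called without chaetocin replicate 3), and GARS, AARS2, QRSL1 and RARS2 fell by 0.25, 0.27, 0.40 and 0.29. Of 12 regulators of mitochondrial biogenesis, 1 was called beside the same share of all genes, CREB1, which fell by 0.26, a call lost without chaetocin replicate 3.

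The nuclear partners of the mitochondrially encoded subunits are given beside the same 15.8% of all genes called. Of 36 tested nuclear subunits of complex I, NDUFB4 and NDUFV1 rose by 0.54 and 0.37 and NDUFB9 fell by 0.47, and the list median was -0.01. None of the 9 of complex III or the 11 of complex IV was called, with medians of 0.01 and 0.06. UQCRC2 and UQCR11 of complex III were called without chaetocin replicate 3, at 0.25 and -0.35 (edgeR adjusted p = 0.0466 and 0.0463), in a fit that called 17% of all genes. Of 16 of ATP synthase, ATP5MC2 rose by 0.25, and of the 4 complex II subunits, all of them nuclear, SDHA rose by 0.50.

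Of 4 tested nuclear-retained and small structural RNAs, NEAT1, a nuclear long noncoding RNA, was called and fell by 0.49 (213 against 307 CPM, edgeR adjusted p = 0.0314), with a list median of -0.08. With chaetocin replicate 3 left out, NEAT1 fell by 0.60 and RMRP, the RNA of RNase MRP, by 0.35, and the median was -0.42. Cell type markers also differed in this contrast. Of 11 tested T cell markers 6 were called higher (among them CD4 by 0.44 and CD3E by 0.29), beside 8.07% of all genes. Of 3 B cell markers, CD79A rose by 1.00 (61.0 against 30.1 CPM, edgeR adjusted p = 4.64e-08) and MS4A1 fell by 0.54. MS4A1 was also called higher in romidepsin than in chaetocin, by 1.33 (edgeR adjusted p = 0.0207). Of 4 fibroblast markers PDGFRB rose by 0.82, of 5 epithelial markers CDH1 fell by 0.85, and neither of the 2 monocyte markers tested was called. The part of these shifts in the mitochondrial values was not tested.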

How the data were processed

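RNA was measured in 13 libraries, made per the labels' protocols from total RNA with DNase treatment and a kit meant for degraded human RNA. Per the submitters' processing notes the authors used bcl2fastq 2.20.0.422, cutadapt 1.8.1 and HTSeq 0.6.1 on hg19; the aligner, strand setting and gene models, not given in the sources used here, are unknown. The deposited values are raw counts per gene. Because strand use is unknown, reads from opposite strands of the mitochondrial genome may not be separated. Strand, length and sequence of members come from GENCODE 29 (GRCh38), and no coordinates are given.

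Groups follow the sample titles; the treatment tags of the F5446 libraries differ in their last digit. All 13 libraries were fitted together in edgeR 4.0.16 (R 4.3.3; filterByExpr, TMM, robust quasi-likelihood test, two-sided), with Benjamini-Hochberg adjustment over 17252 genes. The replicate number contrast had treatment as a term. Log2 CPM used a prior count of 2. Every mRNA and rRNA is reported with values, while all tRNAs are plotted but only some are named in the text. Of the nuclear lists, the 6 core factors and genes called over all libraries are named (of the T cell markers, examples). Genes called anew without chaetocin replicate 3 are named too. The members and lists were chosen with earlier results of these data known. Alternatives were DESeq2 1.42.0, limma-voom (limma 3.58.1), other scalings and filters, a non-robust fit, a replicate block, a term for replicate numbers, fits of 2 groups and each library left out; list counts without chaetocin replicate 3 and values within replicate numbers were added after the data were seen. Fits left with 1 DMSO library assume that it varies like the other groups. The fit was tested on simulated data. No 2 libraries of a group were duplicates (chi-square per degree of freedom 19.8 to 169).

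Residuals of same-numbered libraries correlated at 0.19 to 0.72 (15 pairs, 8685 genes of at least 10 CPM), so that the numbers pair the samples by the rule used (every pair above 0.1), but libraries with different numbers of the same set (1 and 2, or 3 and 4) did so at 0.16 to 0.69. Python 3.11.15 and matplotlib 3.10.9 served for summaries and figures.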

Additional observations from a re-analysis of the deposited data

Results flagged for a closer look

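Dixon's test at the 95% level was applied to 36 groups of 4 libraries, of which 2 had a library far from the rest; chance gives about 1 in 20. MT-ND6 stood at 2260.2 CPM in chaetocin replicate 3, and at 1063 to 1235 CPM in the other 3 chaetocin libraries. The 2 mitochondrial rRNAs gave 48.0 counts per 1000 mitochondrial mRNA counts in romidepsin replicate 3, against 25.9 to 29.3 in the other 3 romidepsin libraries. The DMSO and F5446 groups were too small for this test.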

How the results depend on the processing

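The number of members called, 0 in each comparison, differed under few alternatives. For chaetocin against DMSO it was 2 with no filter on low counts, 1 with DESeq2 and 0 to 1 with each library left out (1 without DMSO replicate 4). For chaetocin against F5446 it was 2 with no filter. For the replicate number contrast it was 1 with DESeq2, 7 with limma-voom, 7 with the non-robust fit and 0 to 12 with each library left out (12 without chaetocin replicate 3). The median log2 fold change of the 13 mRNAs with each library left out ran from -0.09 to 0.79 for chaetocin against DMSO, -0.87 to 0.04 for F5446 against DMSO, -0.34 to 0.66 for romidepsin against DMSO, 0.42 to 1.08 for chaetocin against F5446, -0.42 to 0.14 for romidepsin against chaetocin, 0.37 to 0.82 for romidepsin against F5446 and -0.88 to -0.37 for the replicate number contrast. Of these, 0.66 (without DMSO replicate 1) exceeded the shift of 1 pooled SD. Over all alternatives the sign of the median turned in 6 of 18 for romidepsin against DMSO, 2 of 18 for chaetocin against DMSO, 2 of 20 for romidepsin against chaetocin and 1 of 17 for F5446 against DMSO. With the replicate block, 0 members were called in every treatment comparison, and MT-RNR1 in chaetocin against DMSO stood at 0.92 (adjusted p = 0.712). Genes called over the whole table for romidepsin against chaetocin numbered 16, and 62 with DESeq2, 72 with no filter, 144 with the replicate block, 108 with a term for replicate numbers, 7 in a fit of the 2 groups alone and 5 without romidepsin replicate 2. The cause of these changes was not tested. Only 2 DMSO libraries, which differ from each other, limit every comparison with the vehicle, and the low tRNA counts limit those of the tRNAs.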

Other observations

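Among 10078 nuclear genes averaging 5 CPM or more, those whose log2 CPM followed the mean of the 13 mitochondrial mRNAs most closely over the 13 libraries were CIRBP, a cold-inducible RNA-binding protein (Pearson's r = 0.93, 0.89 without chaetocin replicate 3), and POM121C (0.87). HYPK, PTRH2, TNFSF14, COP1, HEMK1, ID1, PSMG3 and ZNF829 followed with 0.86. The 5 genes that ran most opposite were CUL4B, a ubiquitin ligase scaffold (-0.96 with and without chaetocin replicate 3), HIBADH, a mitochondrial dehydrogenase of valine breakdown (-0.95), CDKN2AIP (-0.93), CLPX, the unfoldase of the mitochondrial ClpXP protease (-0.93), and XPO7 (-0.92). The central 95% of genes had r between -0.77 and 0.69. These values are a description over shared libraries, and they do not show how many genes follow the replicate numbers.

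In DMSO replicate 1 the count of MT-RNR2 was 18342 and that of MT-RNR1 was 9171, a ratio of 2, while the other 12 libraries had ratios of 1.44 to 1.94.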
